A study of Mus musculus with 27 samples.

Results

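The genes described here encode cell-surface adhesion receptors and their organisers. They are 4 integrin subunits (Itga4, Itga5, Itgb1 and Itgb2), the hyaluronan receptor Cd44 and 5 tetraspanins (Cd53, Cd9, Cd63, Cd81 and Cd82), taken by their symbols from 20602 genes listed in at least 1 of 5 RNA-Seq tables. Of the 10 genes, 10 were rows of 4 tables and 9 were rows of the Gfi1b table, in which Cd63 was not analysed. They were selected on measured values, the log2 fold changes of Cbfa2t3 KD, where Cd53 had the deepest fall of the group. That comparison is therefore given for them as a description with no test, and the tests below come from the other comparisons. The test between hairpins (shRNAs) against Cbfa2t3 reuses its libraries.

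The cells were mouse erythroleukaemia (MEL) cells, a virus-transformed line arrested at an early erythroid stage that can be induced to mature towards red cells. Cbfa2t3 (which encodes ETO2), Irf2bp2 and Kdm1a (which encodes LSD1) were knocked down with lentiviral shRNAs and Gfi1b with siRNA, and each KD was compared with cells that had received a non-targeting shRNA or siRNA. ETO2 and IRF2BP2 are co-repressors, GFI1B a DNA-binding repressor and LSD1 a histone demethylase. The 21 libraries were 2 control, 2 sh2 and 2 sh3 libraries for Cbfa2t3, 2 control and 2 sh1 libraries for Irf2bp2, 1 control and 2 KD libraries for Kdm1a, 2 control and 2 KD libraries for Gfi1b, and 2 non-induced and 2 induced libraries of unmodified MEL cells. The labels write Eto2 for Cbfa2t3 and Lsd1 for Kdm1a, call the KD controls WT, and do not say which of the Gfi1b siRNAs a library received.

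Integrins are pairs of an α and a β subunit that bind extracellular matrix or counter-receptors on other cells and link them to actin through talin and kindlin. Erythroid progenitors hold on to fibronectin and VCAM1 in the erythroblastic island through integrins with the Itga4, Itga5 and Itgb1 subunits, and are known to lose adhesion as they mature, whereas the β subunit encoded by Itgb2 belongs to leukocyte integrins. CD44 binds hyaluronan, is anchored to actin by the ERM proteins ezrin, radixin and moesin, and its loss is used to stage maturing erythroblasts. Tetraspanins span the membrane 4 times and gather integrins and other receptors into membrane domains.

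ETO2 and IRF2BP2 binding was available as 1 list of 13229 sites on mm9, of which 1760 were ETO2-only, 2730 shared and 8739 IRF2BP2-only. The classes were read from 3 codes. The sizes of the first 2 match the numbers of ETO2-only and shared sites in the study's methods, and the remaining code was taken as IRF2BP2-only. By the study's methods the ETO2 reads came from an earlier public data set, which is not analysed here. Each site was given to the gene with the nearest transcription start site (TSS) within 1000 kb, with positions from the GENCODE annotation of mm9. Of the 10 genes, 7 had an IRF2BP2-only site, beside 26.8% of 17061 genes with a position, and 5 had an ETO2 site (ETO2-only or shared), beside 15.9% of these genes. No site was assigned to Itgb1 (chr8:131209554-131257100, plus strand) or Cd63 (chr10:128345975-128349872, plus strand).

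Cd53 (chr3:106561779-106593067, minus strand), the pan-leukocyte tetraspanin, had 2 sites, both IRF2BP2-only and both intronic, with centres 1365 and 4857 bases inside the gene from its TSS and fold enrichments over IgG of 8.67 and 10.4. Itga4 (chr2:79095583-79173280, plus strand) had 5 sites, 4 of them IRF2BP2-only and 1 shared, an intronic site 14983 bases from the TSS with a fold enrichment of 9.5. Cd82 (chr2:93259268-93303297, minus strand) also had 5 sites, 3 IRF2BP2-only, 1 shared and 1 ETO2-only. These 2 genes thus held as many sites as the other 6 genes with a site together.

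Cd9 (chr6:125410284-125444809, minus strand) had the highest fold enrichment among the sites of the group, 30.0 at a shared intronic site 21227 bases from the TSS, and an IRF2BP2-only site with a fold of 22.0 just downstream of the gene. Itga5 (chr15:103174720-103197194, minus strand) had an ETO2-only intronic site with a fold of 23.0 at 4253 bases and an IRF2BP2-only intronic site with a fold of 5.6 at 1856 bases. Itgb2 (chr10:76992997-77028453, plus strand) had 2 IRF2BP2-only sites, both within 1 kb of the TSS. Cd81 (chr7:150238644-150253839, plus strand) had 1 ETO2-only intronic site with a fold of 6.0, and the nearest site of Cd44 (chr2:102651298-102741822, minus strand) was IRF2BP2-only and 47006 bases upstream. The list gives 1 fold for a site, does not name the factor whose reads it rests on at shared sites and has no replicate, so these folds describe the sites and carry no error.

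The central 300 bases of 5 of these sites are shown. Each belongs to a gene that passed the limits used below in at least 1 tested comparison. All are written from the plus strand of mm9, 5′ to 3′, and none overlaps an annotated exon. Capitals mark matches on either strand to motifs. The GATA motif was searched as AGATAA and also with T as its first base, the E-box as CAGCTG, the ETS motif as AGGAAG and the RUNX motif as TGTGGT.
Cd53 IRF2BP2-only site, chr3:106591552-106591851: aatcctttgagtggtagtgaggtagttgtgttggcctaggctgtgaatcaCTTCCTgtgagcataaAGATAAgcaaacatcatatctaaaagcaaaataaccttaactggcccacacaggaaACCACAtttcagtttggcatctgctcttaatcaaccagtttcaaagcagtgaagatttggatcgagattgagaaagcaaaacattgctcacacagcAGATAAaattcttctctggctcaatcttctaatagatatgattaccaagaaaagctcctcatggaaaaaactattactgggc
Cd53 IRF2BP2-only site, chr3:106588060-106588359: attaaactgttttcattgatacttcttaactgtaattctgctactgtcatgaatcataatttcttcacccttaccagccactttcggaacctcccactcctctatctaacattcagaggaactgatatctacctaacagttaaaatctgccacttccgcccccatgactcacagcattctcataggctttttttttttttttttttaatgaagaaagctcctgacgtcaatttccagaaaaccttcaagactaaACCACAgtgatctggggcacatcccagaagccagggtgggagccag
Itga4 shared site, chr2:79110416-79110715: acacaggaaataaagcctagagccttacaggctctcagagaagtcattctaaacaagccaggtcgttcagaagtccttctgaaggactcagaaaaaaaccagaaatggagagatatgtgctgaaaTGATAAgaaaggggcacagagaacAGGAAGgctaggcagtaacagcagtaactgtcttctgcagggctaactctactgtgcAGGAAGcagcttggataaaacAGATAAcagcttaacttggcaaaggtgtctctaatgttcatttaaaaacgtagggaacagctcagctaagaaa
Cd9 shared site, chr6:125423432-125423731: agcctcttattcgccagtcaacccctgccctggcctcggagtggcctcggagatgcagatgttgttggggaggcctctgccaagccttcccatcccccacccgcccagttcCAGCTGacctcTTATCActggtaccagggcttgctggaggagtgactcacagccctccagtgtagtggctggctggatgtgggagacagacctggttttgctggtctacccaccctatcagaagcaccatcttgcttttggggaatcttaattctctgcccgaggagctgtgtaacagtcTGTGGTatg
Itga5 ETO2-only site, chr15:103192791-103193090: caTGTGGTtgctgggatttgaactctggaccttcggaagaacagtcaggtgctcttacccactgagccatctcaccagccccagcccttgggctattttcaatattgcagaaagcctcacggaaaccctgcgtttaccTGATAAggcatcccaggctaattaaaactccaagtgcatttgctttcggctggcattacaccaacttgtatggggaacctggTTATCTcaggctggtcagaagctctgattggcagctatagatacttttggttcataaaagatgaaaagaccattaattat

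The Cd53 site nearer to the TSS held 2 GATA matches, 1 ETS match and 1 RUNX match, and the other Cd53 site 1 RUNX match. The Itga4 site held 2 GATA and 2 ETS matches, the Cd9 site 1 GATA match, 1 E-box and 1 RUNX match, and the Itga5 site 2 GATA matches and 1 RUNX match. In windows of the same length over all 13229 sites, a GATA match was present in 54.7%, an ETS match in 46.5%, an E-box in 32.5% and a RUNX match in 29.9%. By class, a GATA match was found at 83.8% of shared, 81.2% of ETO2-only and 40.3% of IRF2BP2-only sites, and a RUNX match at 36.4%, 30.8% and 27.7%. The matches are letters in these windows and were not tested as binding sites of any factor.

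**Figure D1:**
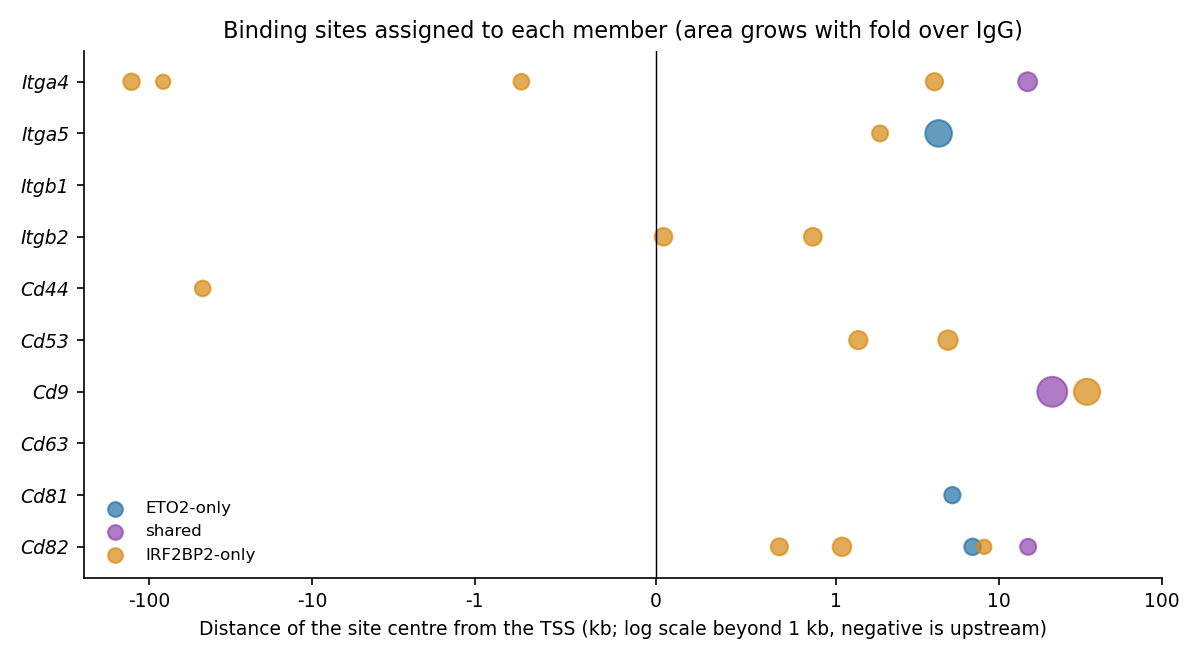
Distance of each binding site from the TSS of the gene it was assigned to (kb, linear within 1 kb and logarithmic beyond, negative values upstream), with 1 row per gene, colour for the class of the site and area for the fold enrichment over IgG. Cd53 and Itgb2 carry IRF2BP2-only sites near the TSS, the largest points belong to Cd9 and Itga5, and Itgb1 and Cd63 have none.

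The levels of the genes were compared with each other as the deposited RPKM, reads scaled to transcript length and library size. In the 2 control libraries of Cbfa2t3 KD the order was Cd81 (49.9 ± 4.21 RPKM, SD, n = 2), Itgb1 (47.6 ± 0.318), Cd44 (33.8 ± 0.875), Cd82 (26.8 ± 1.40), Itgb2 (26.7 ± 0.376), Itga5 (20.2 ± 0.156), Itga4 (10.5 ± 0.601), Cd9 (6.74 ± 0.417), Cd53 (0.780 ± 0.172) and Cd63 (0.167 ± 0.0304). The library ranges of Cd81 and Itgb1 overlapped, as did those of Cd82 and Itgb2, and the other neighbours in this order were separated. In non-induced MEL cells Itgb1 (85.4 ± 29.4 RPKM) and Cd81 (67.9 ± 13.7 RPKM) again came before Cd44 (41.8 ± 2.88 RPKM), and the ranges of Itga5, Cd82, Itga4, Cd53 and Cd9 overlapped from neighbour to neighbour.

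Cd63, the tetraspanin of lysosomes and exosomes, was at the limit of detection. It had between 0 and 10 counts in the libraries of the 4 tables that list it and was not tested in any of them. A floor of 3 counts was taken as the detection limit, and no fold is given for Cd63.

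Cd53 was the gene whose control level differed most between tables. It was at 0.967 and 0.658 CPM (read counts scaled to a common library size, by the TMM method within each table) in the Irf2bp2 controls, at 2.52 and 1.84 CPM in the Cbfa2t3 controls and at 2.90 CPM in the Kdm1a control. It was at 30.6 and 18.4 CPM in the Gfi1b controls and at 53.4 and 22.1 CPM in non-induced MEL cells. The highest of the 5 control means was 46.5 times the lowest for Cd53, against 2.60 times for Itga4 and between 1.30 and 1.80 times for Itga5, Itgb1, Itgb2, Cd44, Cd9, Cd81 and Cd82. The tables were scaled separately and differ in delivery and depth, so these values are a description and the tests below stay within tables or compare changes.

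**Figure D2:**
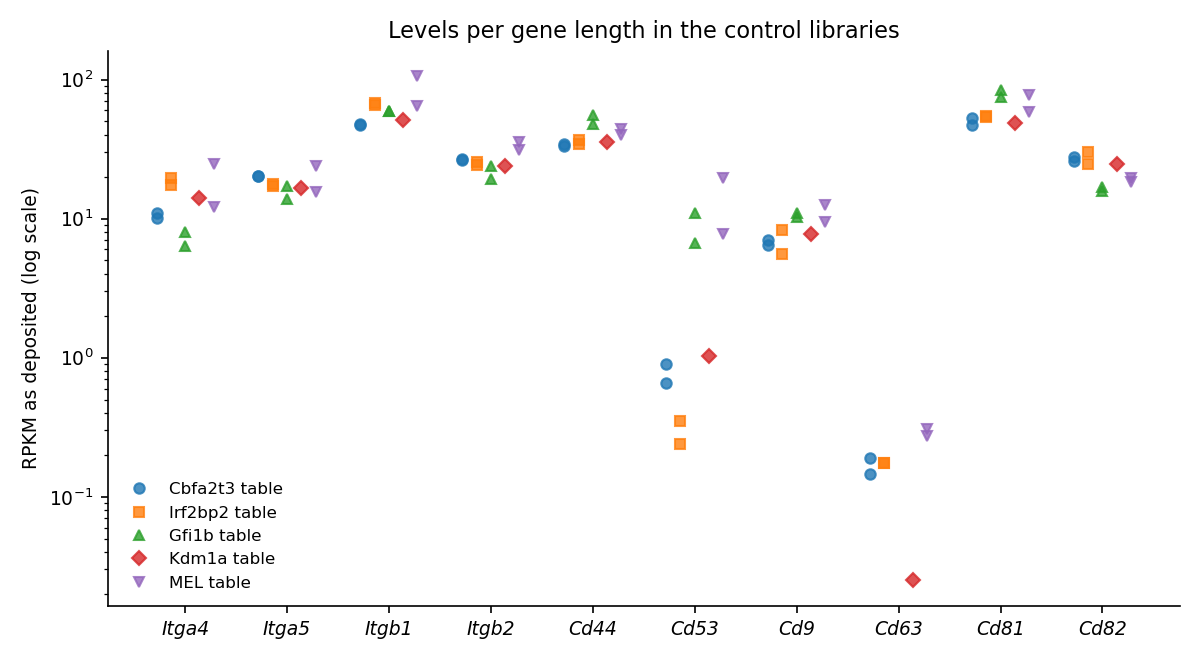
Deposited RPKM (log scale) of the 10 genes in the control or non-induced libraries, with 1 point per library and a marker for each of the 5 tables. Cd53 is the only one of the genes with RPKM values that spread over more than a factor of 10 among controls and is not near the detection limit, from a mean of 0.295 in the Irf2bp2 table to 13.6 in the MEL table.

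The libraries of the Cbfa2t3, Irf2bp2 and Kdm1a tables held between 44519414 and 57684583 counted reads, and those of the Gfi1b and MEL tables between 9929311 and 19623105. Of 10 erythroid markers 9 were listed, at a summed level of 1192 CPM or more in every library, and the stromal markers summed to at most 1.3 CPM. The leukocyte markers summed to between 3.70 and 50.6 CPM, with Ptprc (which encodes CD45) making up nearly all of it, and Csf1r, Lyz2, Itgam, Cd3e and Ms4a1, where listed, had between 0 and 10 counts. The targeted gene was lower in the KD libraries of Cbfa2t3 (415.0 ± 19.7 CPM in controls, n = 2, against 178.1 ± 54.1 CPM, n = 4), Irf2bp2 (117.3 ± 2.36 against 93.95 ± 2.26 CPM, n = 2 each) and Kdm1a (152.5 against 16.9 and 16.3 CPM). Gfi1b went against its label in 1 library: it was at 122.6 and 145.0 CPM in the controls, at 214.7 CPM in the library labelled Gfi1b KD replicate 1 and at 76.3 CPM in replicate 2. The fitted changes of Gfi1b KD that are named are given with and without that library.

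Cbfa2t3 KD is the comparison in which the genes were chosen. Cd53 had 128 and 104 counts in the controls (2.52 and 1.84 CPM), 8 and 12 counts with sh2 (0.162 and 0.236 CPM) and 4 and 13 counts with sh3 (0.0811 and 0.226 CPM). Every KD library lay below both controls, as was so for 19.6% of 12537 genes (and for 18.2% the reverse), and the fitted fall was 12-fold (log2 fold change -3.59 ± 0.29, SE). Its level after the KD was within reach of the floor of 3 counts, about 0.06 CPM in these libraries. With each hairpin alone the log2 fold change was -3.42 (sh2) and -3.75 (sh3).

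Cd44 was at 151.7 and 146.2 CPM in the controls, at 98.7 and 104.2 CPM with sh2 and at 90.7 and 101.9 CPM with sh3, a 1.5-fold fall (log2 fold change -0.58 ± 0.07). Cd81, a tetraspanin made by many cell types, went from 69.5 and 78.4 CPM to between 50.4 and 56.3 CPM (log2 fold change -0.48 ± 0.07), and Itgb2 from 76.8 and 75.3 CPM to between 53.4 and 62.5 CPM (log2 fold change -0.40 ± 0.08). With Cd53 and Itga5, these 3 genes made 5 of 9 with every KD library below both controls, and nothing is read from that count. Itga4 went the other way with no overlap, from 105.6 and 97.5 CPM to 113.0 and 115.6 CPM with sh2 and 151.0 and 175.2 CPM with sh3.

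The other 4 tested genes moved less. Their log2 fold changes were -0.14 ± 0.07 for Itga5, -0.06 ± 0.08 for Cd82, -0.01 ± 0.10 for Itgb1 and 0.01 ± 0.12 for Cd9. The limits used throughout were 0.05 for the adjusted p and 0.5 for the size of the log2 fold change. At these, 2 of 9 tested genes, Cd53 and Cd44, passed, where 720 of 12537 genes (5.74%) passed overall. Nothing is read from that count, since the genes were chosen in this comparison. The median log2 fold change of the 9 was -0.14, against 0.00 over all genes.

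The other genes of these families were described in the same comparison. Of 11 other integrins Itgb3 was past the limits (log2 fold change 0.97 ± 0.23), and of 16 other tetraspanins 3 were higher, led by Tspan18 (1.32 ± 0.18) and Tspan33 (1.04 ± 0.07), and Tspan8 (-0.65 ± 0.11) was lower, while none of 21 integrin adaptors passed. Of 10 integrin ligands Icam4 was higher (0.54 ± 0.10) and Spp1 (-1.66 ± 0.39) and Lamb2 (-1.01 ± 0.26) were lower. Spp1 had 13 and 19 counts in the controls and between 3 and 6 in the KD libraries, close to the floor of 3 counts. Of 9 CD44 partners Ank1 was higher (0.52 ± 0.08) and Srgn lower (-0.97 ± 0.07), and of 8 tetraspanin partners Ptprc was lower (-1.47 ± 0.15). The summed erythroid markers lay between 1582 and 1594 CPM in the controls and between 2157 and 2528 CPM in the KD libraries. The megakaryocyte list, with 1 of 4 tested genes higher, summed to 413.4 and 401.3 CPM against 471.4 to 586.5 CPM. The leukocyte sum, nearly all Ptprc, was 13.6 and 12.7 CPM against 3.70 to 5.54 CPM. Their part in the changes of Cd53 and Cd44 was not tested.

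**Figure D3:**
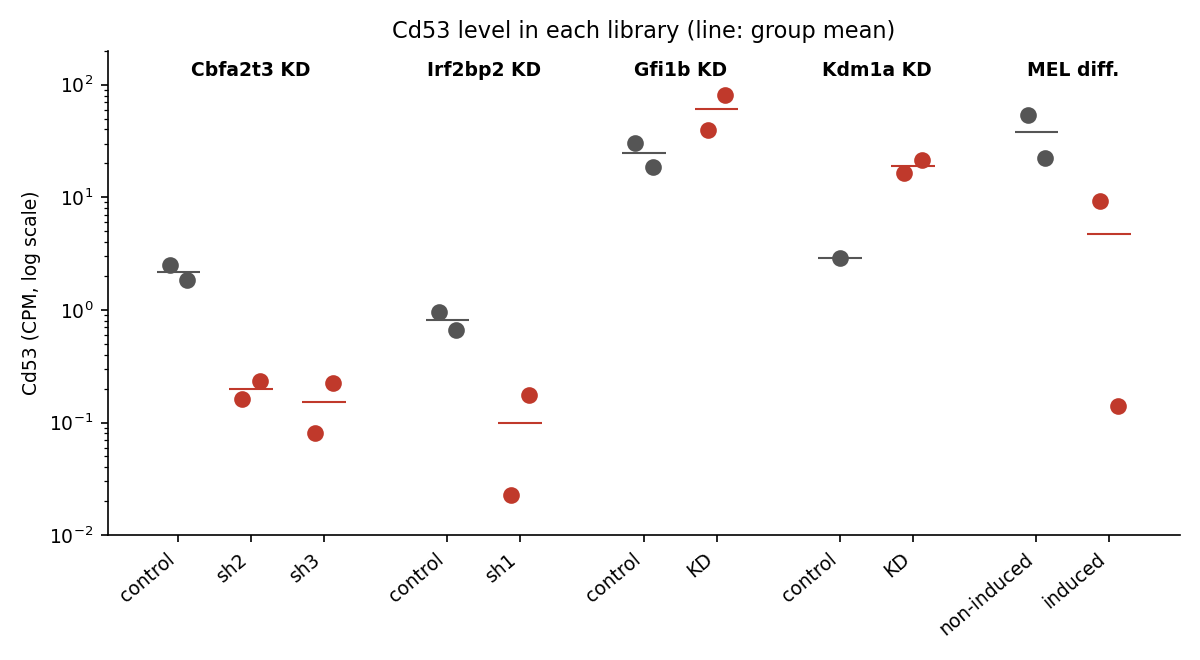
Cd53 level (CPM, log scale) in each of the 21 libraries, with a line at the group mean and grey for control or non-induced libraries. Cd53 lies lower in the KD libraries of Cbfa2t3 and Irf2bp2 and in induced MEL cells, and higher in the KD libraries of Kdm1a and the libraries labelled Gfi1b KD, in 1 of which Gfi1b is above both controls, than in the controls of the same table, and the induced libraries lie far apart.

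The 2 hairpins against Cbfa2t3 left different amounts of its mRNA, 201.8 and 242.1 CPM with sh2 against 122.5 and 145.9 CPM with sh3 (log2 fold change -0.73 ± 0.10, adjusted p = 0.000752, edgeR). This difference was not used to choose the genes, but its libraries belong to the comparison that was. The hairpins also differ in sequence, so effects of residual Cbfa2t3 and of the hairpin itself cannot be told apart. Itga4 was higher with sh3 than with sh2 (log2 fold change 0.51 ± 0.07, adjusted p = 0.00117) and was the only 1 of 9 tested genes past the limits, where 465 of 12537 genes (3.71%) passed. Its fold lies at the limit, and without sh2 replicate 1 (log2 fold change 0.49) or sh3 replicate 2 (0.40) it no longer passed.

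Itgb1, the β partner of Itga4, moved the same way by less, from 178.1 and 177.5 CPM with sh2 to 210.0 and 223.7 CPM with sh3 (log2 fold change 0.28 ± 0.05, adjusted p = 0.00652), and stayed under the limit on the fold. Itgb2 gave -0.19 ± 0.06 (adjusted p = 0.0523). For Cd53 the hairpins could not be separated at this depth (log2 fold change -0.33 ± 0.54, adjusted p = 0.739), with 20 counts in the sh2 libraries together and 17 in the sh3 libraries. Of the 9 tested erythroid markers 2 were higher with sh3, Slc4a1 (1.38 ± 0.09) and Alas2 (0.61 ± 0.09), and the summed level was 2157 and 2158 CPM with sh2 and 2528 and 2472 CPM with sh3. The megakaryocyte list, with 2 of 4 tested genes lower, summed to 586.5 and 556.2 CPM with sh2 and to 471.4 and 482.9 CPM with sh3. Their part in the difference of Itga4 was not tested.

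Among related genes, Itgb3 and Itga2b, which form the platelet fibrinogen receptor, were lower with sh3 than with sh2 (log2 fold changes of -0.63 ± 0.12 and -0.50 ± 0.05), the only 2 of 11 tested other integrins past the limits. Of 16 other tetraspanins Tspan14 was higher (0.60 ± 0.07) and Tspan17 lower (-0.79 ± 0.16), and of 21 integrin adaptors Parvb was higher (0.61 ± 0.05) and Src (-0.72 ± 0.15) and Zyx (-0.55 ± 0.09) were lower. Of 10 integrin ligands Col4a2 (-0.90 ± 0.18) and Lamb2 (-0.84 ± 0.15) were lower, of 9 CD44 partners the hyaluronan synthase Has3 was higher (0.98 ± 0.24), and none of 8 tetraspanin partners passed.

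Irf2bp2 KD, of the partner of ETO2, rests on 1 hairpin (sh1) here, so effects of this hairpin on other genes cannot be told apart. The study lists another hairpin against Irf2bp2 and measured its KDs by qPCR or western blot. Irf2bp2 itself was 1.26-fold lower in the KD libraries (log2 fold change -0.33 ± 0.08, adjusted p = 0.00266, edgeR), which is under the limit on the fold. Cd53 had 48 and 33 counts in the controls (0.967 and 0.658 CPM) and 1 and 9 counts in the KD libraries (0.0226 and 0.175 CPM). Both KD libraries lay below both controls, as was so for 36.3% of 12329 genes (and for 37.7% the reverse), and the fall was 7.71-fold (log2 fold change -2.95 ± 0.54, adjusted p = 0.000268, edgeR). It passed under every alternative tried, and leaving out single libraries gave log2 fold changes between -5.02, without KD replicate 2, and -2.21, without KD replicate 1.

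Cd44 fell from 160.8 and 147.6 CPM to 87.3 and 88.6 CPM, which is 1.77-fold (log2 fold change -0.82 ± 0.08, adjusted p = 5.27e-07). Cd82, a tetraspanin that restrains cell migration, rose from 44.9 and 53.7 CPM to 66.0 and 79.0 CPM, or 1.46-fold (log2 fold change 0.54 ± 0.10, adjusted p = 0.000345). Its fold is close to the limit, and without control replicate 1 (0.42) or KD replicate 2 (0.41) it no longer passed. Thus 2 of 9 tested genes fell and 1 rose, where 12.5% of 12329 genes fell and 10.1% rose.

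Cd9, the tetraspanin of platelets and early B cells, went from 6.57 and 9.56 CPM to 11.1 CPM in both KD libraries (log2 fold change 0.45 ± 0.15, adjusted p = 0.0222), under the limit on the fold, and its controls differed from each other. Without control replicate 2 its log2 fold change was 0.75 and it passed. Itgb1 went from 271.8 and 277.6 CPM to 215.1 and 244.7 CPM (log2 fold change -0.27 ± 0.09, adjusted p = 0.0186), also under the limit. Itga4 (-0.20 ± 0.09), Cd81 (0.14 ± 0.08), Itga5 (-0.10 ± 0.09) and Itgb2 (0.06 ± 0.08) had adjusted p values between 0.0657 and 0.553.

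Of 11 other integrins 5 rose and 4 fell in Irf2bp2 KD. Itgb5 (log2 fold change 1.56 ± 0.32) and Itgb7 (1.32 ± 0.09) rose most, and Itgal, the α partner of Itgb2 in leukocytes, fell most (-1.75 ± 0.12). Of 17 other tetraspanins 3 rose, led by Tspan33 (1.66 ± 0.11) and Tspan18 (1.31 ± 0.20), and 2 fell, Tspan31 (-0.93 ± 0.10) and Tspan5 (-0.66 ± 0.09). Of 9 CD44 partners the ERM protein gene Msn fell (-0.62 ± 0.08), as did the proteoglycan gene Srgn (-0.51 ± 0.09), while Ank1 (1.31 ± 0.09) and the hyaluronidase gene Hyal2 (0.69 ± 0.10) rose.

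The integrin adaptors were divided, with 4 of 21 higher (Parvb 0.83 ± 0.09 and Zyx 0.61 ± 0.09 among them) and 3 lower, including talin (Tln1, -0.73 ± 0.11) and Apbb1ip (-0.67 ± 0.08). Of 8 tetraspanin partners Sdcbp, which encodes syntenin, fell by 1.59 on the log2 scale and Ptprc by 1.13. Of 10 integrin ligands Icam4, a red-cell adhesion molecule, rose (0.77 ± 0.08) and Lamb2 fell (-0.72 ± 0.16). The median log2 fold change was 0.60 for the other integrins and -0.10 for the 9 genes described here, against -0.01 over all genes.

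Other marker genes moved with these results in Irf2bp2 KD. All 9 tested erythroid markers rose, with a summed level of 1278 and 1340 CPM in the controls and 3486 and 3758 CPM in the KD libraries, and the megakaryocyte list went from 363.5 and 413.9 to 777.2 and 812.6 CPM, with 4 of 4 tested genes higher. The leukocyte list went from 18.4 and 19.5 to 8.73 and 9.19 CPM, with 1 to 2 of its 6 listed genes above 3 counts in a library. Their part in the changes of Cd53, Cd44 and Cd82 was not tested. In bulk RNA, fewer cells with a transcript and less transcript per cell cannot be told apart.

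Induction compares MEL cells given an agent, which the labels do not name, with non-induced cells. Effects of the agent, of time and of maturation cannot be told apart. By the study's legend, differentiation ran for longer than the KDs of Cbfa2t3, Irf2bp2 and Kdm1a. Cd44 fell from 171.3 and 197.2 CPM to 65.9 and 33.8 CPM, or 3.68-fold (log2 fold change -1.88 ± 0.30, adjusted p = 0.000761, edgeR). Itga5, the α subunit of the fibronectin receptor, fell from 102.4 and 69.6 CPM to 31.4 and 31.2 CPM, or 2.74-fold (log2 fold change -1.45 ± 0.27, adjusted p = 0.00175). Itgb2 fell from 99.6 and 90.5 CPM to 50.7 and 51.4 CPM, or 1.85-fold (log2 fold change -0.89 ± 0.24, adjusted p = 0.0144). The induced libraries of these genes and of Cd53 lay below both non-induced libraries, 4 of 9 genes, where 34.7% of all genes did so and 32.5% lay above.

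Cd53 had 1068 and 263 counts before induction (53.4 and 22.1 CPM) and 134 and 2 counts after it (9.24 and 0.141 CPM). The induced libraries differed widely from each other. The fitted fall was 8.0-fold (log2 fold change -3.00 ± 0.84, adjusted p = 0.0181). It was not past the limits with DESeq2 (adjusted p = 0.285), without non-induced replicate 1 (adjusted p = 0.218) or without non-induced replicate 2 (adjusted p = 0.0695), and over the libraries left out in turn it ranged from -7.99, without induced replicate 1, to -2.01.

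Cd82 rose from 35.3 and 33.9 CPM to 73.0 and 82.95 CPM, or 2.26-fold (log2 fold change 1.18 ± 0.25, adjusted p = 0.00376), and Cd9 from 14.5 and 11.4 CPM to 26.8 and 28.6 CPM, or 2.14-fold (log2 fold change 1.10 ± 0.31, adjusted p = 0.0177). Thus 4 of 9 tested genes fell and 2 rose, where 14.8% of 11713 genes fell and 12.4% rose. The calls of Itgb2 (without non-induced replicate 1 or induced replicate 2) and Cd9 (without non-induced replicate 2 or induced replicate 2) were lost when those libraries were left out, with adjusted p values up to 0.0772 and 0.105.

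Itga4, Itgb1 and Cd81 were not past the limits, with log2 fold changes of -0.13 ± 0.32, -0.25 ± 0.28 and 0.21 ± 0.25. Their non-induced libraries differed from each other, 114.9 and 244.5 CPM for Itga4 and 264.4 and 453.6 CPM for Itgb1, and enclosed the induced values of Itga4 and Itgb1. The sign of each of the 3 changes turned when 1 library was left out.

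**Figure D4:**
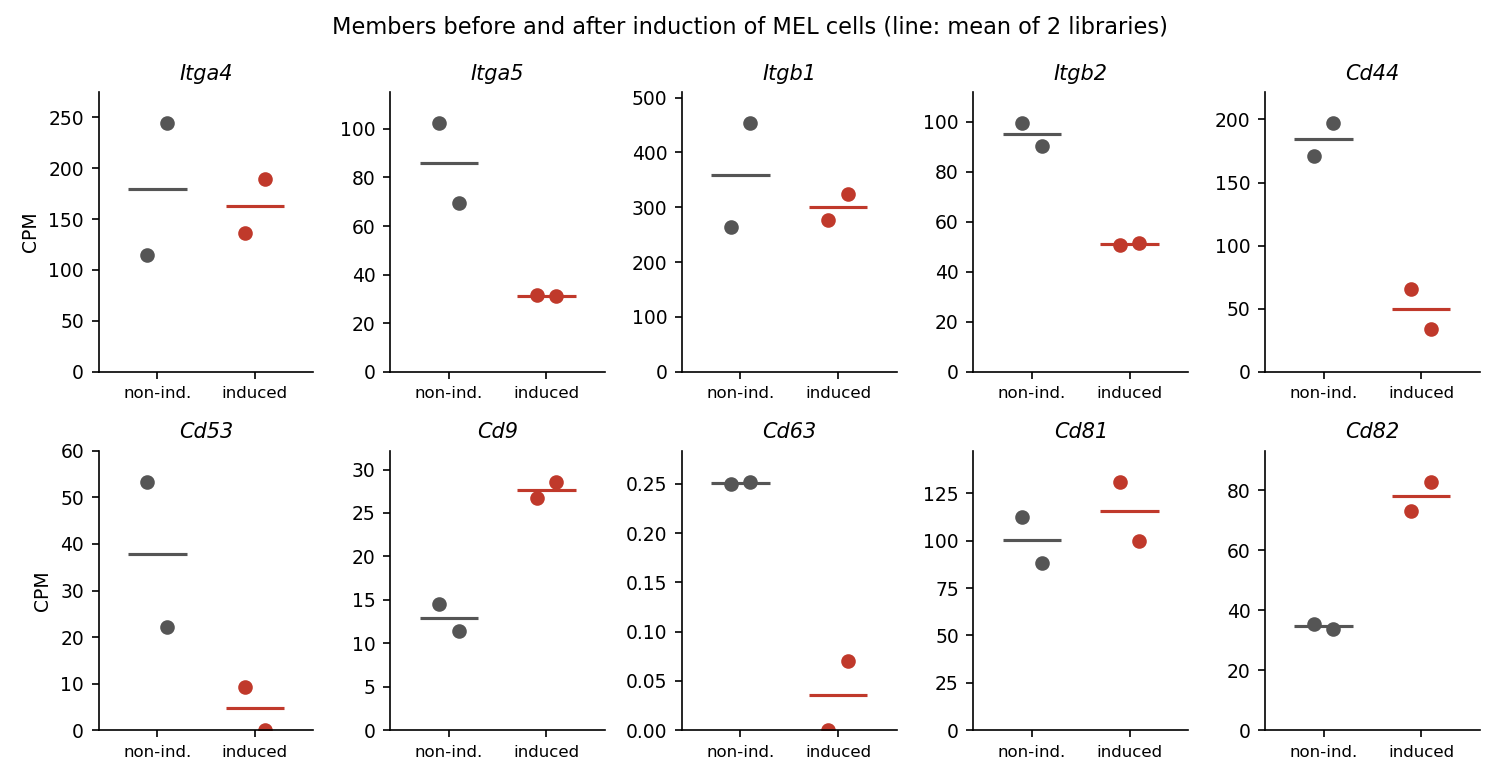
Level of each of the 10 genes (CPM, linear scale from 0) in the 2 non-induced and 2 induced MEL libraries, with a line at the group mean. The 2 groups are separated for Itga5, Itgb2, Cd44, Cd53, Cd9 and Cd82 and overlap for Itga4, Itgb1 and Cd81, where 34.7% of all genes lie wholly below and 32.5% wholly above on induction, while Cd63 stays at or under 5 counts.

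Of 9 other integrins 2 rose on induction, Itga2b (log2 fold change 2.07 ± 0.29) and Itgav (1.31 ± 0.28), and 3 fell, led by Itgae (-2.26 ± 0.70) and Itgal (-1.68 ± 0.34). Of 16 other tetraspanins 4 rose, with Tspan18 (5.29 ± 0.42) and Tspan33 (2.83 ± 0.25) ahead of Cd82 and Cd9, and 2 fell, Tspan15 (-1.94 ± 0.60) and Tspan4 (-1.47 ± 0.36). Among 20 integrin adaptors 6 rose, led by Cyth1 (0.99 ± 0.31) and Parvb (0.96 ± 0.26), and 3 fell, led by Apbb1ip (-1.69 ± 0.26) and α-actinin (Actn1, -1.23 ± 0.27).

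Integrin ligands made by the cells fell in 3 of 8 tested cases, osteopontin (Spp1, -3.04 ± 0.74) and Lamb2 (-2.91 ± 0.59) most. Of 10 CD44 partners Srgn (-1.16 ± 0.30) and Msn (-1.12 ± 0.30) fell and Ank1, an erythroid membrane anchor, rose (1.73 ± 0.25). Of 8 tetraspanin partners Cd47 (1.2 ± 0.26) and Adam10 (0.75 ± 0.25) rose and Ptprc fell (-1.01 ± 0.31). The summed erythroid markers went from 2036 and 1915 CPM to 4297 and 3543 CPM, the megakaryocyte markers from 520.3 and 375.7 CPM to 1284 and 1154 CPM, and the leukocyte markers from 43.8 and 50.6 CPM to 29.5 and 17.0 CPM, and their part in the changes described was not tested.

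Some genes were past the limits on induction but not in Irf2bp2 KD, and the difference was tested as an interaction over the 8 libraries of both tables. That fit takes 1 spread per gene from both tables, while the SE of Itgb2 was 0.08 in Irf2bp2 KD and 0.24 on induction. The p of Itgb2 may thus understate the spread of the MEL libraries. Itga5 (1.38 ± 0.27 on the log2 scale, adjusted p = 0.0108) and Itgb2 (0.98 ± 0.19, adjusted p = 0.0104) differed between the comparisons, with their fall on induction not matched in Irf2bp2 KD. These were 2 of 9 tested genes, where 19.5% of 12778 genes differed. Cd44 (1.08, adjusted p = 0.0614) and Cd82 (-0.61, adjusted p = 0.0897) had unadjusted p values under 0.05 but did not pass after adjustment, nor did Cd9 (-0.62 ± 0.32, adjusted p = 0.2), which was past the limits on induction alone. The calls of Itga5 and Itgb2 did not hold when some of the libraries of Irf2bp2 KD were left out, with adjusted p values up to 0.0647 and 0.0739.

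The libraries labelled Gfi1b KD differed from each other. With both libraries, edgeR called 0 of 11190 genes (0.0%), none of the 9 tested genes among them, while 784 genes and 4 of the 9 (Itga4, Cd53, Cd9 and Cd82) had an unadjusted p under 0.05 and DESeq2 called 49 genes and none of the 9. Cd53 was at 30.6 and 18.4 CPM in the controls, at 39.9 CPM in the library labelled Gfi1b KD replicate 1 and at 80.9 CPM in replicate 2 (log2 fold change 1.30 ± 0.40, adjusted p = 0.69). Without the library labelled KD replicate 1, which leaves a single KD library that is assumed to vary like the controls, the log2 fold change was 1.71 and Cd53 passed the limits (adjusted p = 1.24e-14), along with Cd82 (0.79, adjusted p = 0.0141) and Cd81 (0.59, adjusted p = 0.0118). These are 3 of 9 genes, where 396 of 11381 genes (3.48%) passed in that fit.

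Cd82 was at 28.9 and 30.2 CPM in the controls, at 78.5 CPM in the library labelled Gfi1b KD replicate 1 and at 51.0 CPM in replicate 2. Cd9 was at 12.3 and 13.0 CPM in the controls and at 21.8 and 18.9 CPM in these libraries (log2 fold change 0.69, and 0.58 without the library labelled replicate 1). With both libraries the log2 fold change of Cd81 was 0.47 ± 0.20 (adjusted p = 0.699, edgeR). In all, 5 of 9 genes (Itga4, Cd53, Cd9, Cd81 and Cd82) were higher in both libraries labelled KD than in both controls, where 19.2% of genes were, and 1 (Itgb1) was lower in both, where 20.1% were. In KD replicate 2 alone, 7 of 9 (these 5, Itga5 and Itgb2) lay above both controls, where 36.5% of genes did, and Itgb1 lay below, where 37.2% did. Cd44 differed between the libraries labelled KD, with 119.4 CPM in the library labelled replicate 1 and 226.4 CPM in replicate 2 against 243.8 and 210.9 CPM in the controls. The summed erythroid markers also differed between the KD libraries, in the opposite direction, with 3296 CPM in the library labelled replicate 1 and 1385 CPM in replicate 2 against 1338 and 1446 CPM in the controls. The megakaryocyte list summed to 879.1 CPM and 172.7 CPM in these libraries against 222.0 and 285.0 CPM in the controls, and the leukocyte list to 33.0 and 34.6 CPM against 30.9 and 21.7 CPM. Their part in these values was not tested. None of the related genes passed with both libraries.

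The change of Cd53 in Irf2bp2 KD minus that in Gfi1b KD was -4.21 ± 0.87 on the log2 scale (adjusted p = 0.0671), and 0 of 9 genes passed that test, where 0.842% of 12477 genes did. Without the library labelled Gfi1b KD replicate 1 it was -4.61 (adjusted p = 0.000911) and passed, in a fit where 18.3% of 13313 genes did. Itga4 gave -0.74 ± 0.23 (adjusted p = 0.149), and -0.58 (adjusted p = 0.0513) without that library. For Gfi1b KD minus induction, edgeR called 0 of 11981 genes (0.0%) and none of the 9. Cd53 (4.28 ± 1.35), Itga5 (1.61 ± 0.43), Cd44 (1.46 ± 0.50) and Itgb2 (1.15 ± 0.31) were the 4 with an unadjusted p under 0.05, of 1545 such genes. The DESeq2 test was not run on this difference. Without the library labelled Gfi1b KD replicate 1 these 4 passed, with differences of 4.70 for Cd53 (adjusted p = 0.0358), 1.96 for Itga5 (0.0111), 1.86 for Cd44 (0.0224) and 1.29 for Itgb2 (0.0306), in a fit where 1109 of 12519 genes (8.86%) passed.

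Kdm1a KD has 1 control library and was described with no test, and a gene counted as past the limit where each KD library lay at least 0.5 away from the single control on the log2 scale, both in 1 direction. Cd53 had 141 counts (2.90 CPM) in the control and 891 and 991 counts (16.4 and 21.6 CPM) in the KD libraries, 6.47-fold higher on average, with log2 changes of 2.49 and 2.89. Cd81 went from 73.3 CPM to 123.7 and 130.7 CPM and Itga5 from 73.6 CPM to 112.0 and 109.6 CPM, and Itgb1 went down from 217.8 CPM to 135.3 and 148.2 CPM. These are 3 genes higher and 1 lower of 9, where 13.1% of 12628 genes were higher and 9.8% lower.

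The other 5 genes stayed within the limit in Kdm1a KD, with mean log2 changes from -0.18 (Itga4) to 0.16 (Cd82). Among related genes, Itgb3 (1.73) and Itgb4 (0.97) were higher, 2 of 11 other integrins, and 5 of 17 other tetraspanins were lower, led by Tspan18 (-0.69) and Tspan14 (-0.63), while Upk1a (0.77) was higher. Of 9 integrin ligands 4 were higher, led by Lamb2 (1.68) and Spp1 (1.34), and Icam4 (-0.71) was lower, and of 20 adaptors Src was higher (1.62). Of 10 CD44 partners Mmp9 (1.73) and Msn (0.62) were higher and Ank1 (-0.80) and Nf2 (-0.65) lower, and of 8 tetraspanin partners Adam10 (-0.81) and Cd47 (-0.76) were lower. The erythroid markers summed to 1656 CPM without and to 1193 and 1192 CPM with the KD, and the leukocyte markers, nearly all Ptprc, to 13.8 CPM without and 18.8 and 21.2 CPM with it. Their part in the values above was not tested.

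**Figure D5:**
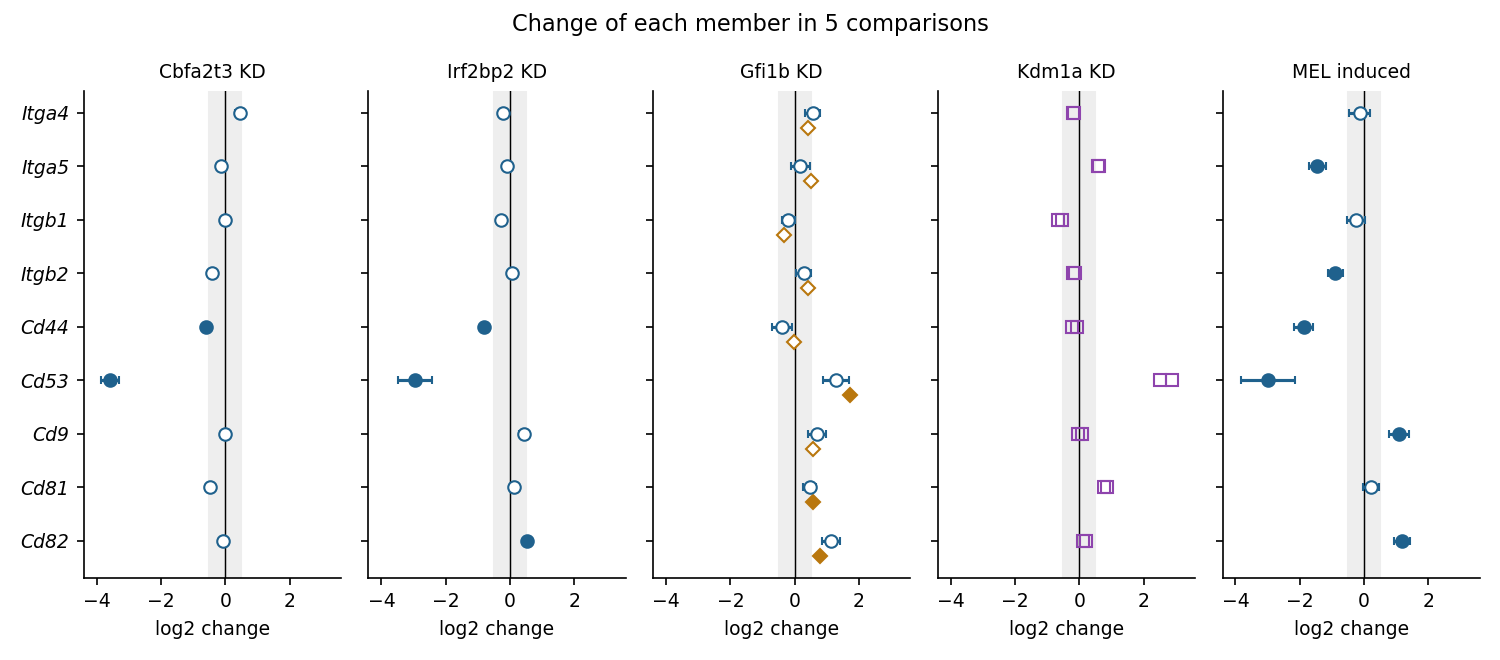
Log2 change of 9 genes in the 5 comparisons. Circles are edgeR estimates, filled where past the limits, with an SE derived from the F statistic of the test. Diamonds, filled by the same limits, are the Gfi1b KD estimates without the library labelled replicate 1. Open squares are the 2 Kdm1a KD libraries against their single control, and the grey band is a log2 change within 0.5 of 0. Cd53 has the longest reach on both sides, from -3.59 in Cbfa2t3 KD to 2.69 in Kdm1a KD, and the filled points of Cbfa2t3 KD belong to the comparison in which the genes were chosen.

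The genes whose changes lay nearest to those of Cd53 over Cbfa2t3, Irf2bp2, Gfi1b and Kdm1a KD and induction, by Euclidean distance of the log2 changes among 11053 genes with a value in all 5, were Vim (distance 1.68), Krt75 (1.73), Pik3r6 (1.82), Thy1 (1.90) and Trim16 (1.91). Vim, which encodes the intermediate filament vimentin, changed by -3.07, -3.81, 0.06, 2.17 and -3.06 in that order, where Cd53 changed by -3.59, -2.95, 1.30, 2.69 and -3.00. Thy1, a glycolipid-anchored surface glycoprotein, changed by -2.32, -1.77, 0.61, 2.57 and -2.60. With the Gfi1b change taken without the library labelled replicate 1, the nearest 5 of 11002 genes were the same 5, led by Krt75 (1.52), and the Gfi1b change was 1.71 for Cd53, 0.58 for Vim and 1.10 for Thy1. That setting, like the count for KD replicate 2 alone above, was chosen after seeing the data. The likeness rests on 5 values per gene, includes the comparison in which Cd53 was chosen and is a description.

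Cd44, Cd82 and Itga5 are set side by side over the same comparisons. Cd44 went down in Cbfa2t3 KD (-0.58), Irf2bp2 KD (-0.82) and induction (-1.88), while its log2 change was -0.39 ± 0.31 in Gfi1b KD (-0.0045 without the library labelled replicate 1) and -0.15 in Kdm1a KD. Cd82 was at -0.06 in Cbfa2t3 KD, rose in Irf2bp2 KD (0.54) and on induction (1.18), and was at 1.14 ± 0.28 in Gfi1b KD (0.79 without that library) and 0.16 in Kdm1a KD. Itga5 fell on induction (-1.45), was higher in both Kdm1a KD libraries (0.60), and was at -0.14 in Cbfa2t3 KD, -0.10 in Irf2bp2 KD and 0.18 ± 0.31 in Gfi1b KD (0.52 without that library). These comparisons do not share libraries, and apart from the interactions given above their differences were not tested.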

How the data were processed

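The authors mapped RNA-Seq reads to mm9 with TopHat2 and deposited, for each gene and library, the raw read count and the RPKM obtained with the rpkmforgenes script. The tables also hold the authors' DESeq2 log2 fold changes and p-values, which are not used. How reads that match several places were counted is not given in the sources used here. The deposited site list gives the ratio of ChIP to IgG reads (fold enrichment), an adjusted p-value as the authors computed it and a class code for each site. It rests on 1 IRF2BP2 ChIP library and, by the study's methods, on ETO2 ChIP reads of an earlier public data set. Its 4 columns with read numbers, which match no single library, were left out. The GENCODE annotation of mm9 gave the gene positions.

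Counts were tested with edgeR 4.0.16 in R 4.3.3 (TMM, filterByExpr, quasi-likelihood test, Benjamini-Hochberg adjustment over all genes of a table). The limits were those of the study, 0.05 for the adjusted p and 0.5 for the size of the log2 fold change. The SE printed with edgeR changes is the size of the log2 fold change over the square root of the F statistic. It is approximate, above all for small changes and low counts. Interactions were fitted over the libraries of 2 tables, with 1 spread per gene for both. Kdm1a KD was described with log2 CPM and a prior count of 2. Sites and figures were made with Python 3.11.15, pandas 2.3.3, pysam 0.24.0 and matplotlib 3.10.9, and the tests were checked on simulated data. Alternatives were DESeq2 1.42.0 or its size factors, no filter, no fold limit, a replicate block, each hairpin alone and leaving out each library.

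The members, the related gene lists (other integrins and tetraspanins, adaptors, ligands, CD44 and tetraspanin partners, markers) and the tests were chosen with earlier results of these data known. Named were the members, the knocked-down genes, up to 2 called genes each way per list and comparison, and the 5 genes nearest to Cd53. The study calls the replicates biologically independent, and p-values measure the spread between libraries of a group, mostly 2. For Cbfa2t3 KD the sh2 and sh3 libraries were fitted as a group of 4, so its spread includes differences between hairpins. The floor of 3 counts covers counting error only.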

Additional observations from a re-analysis of the deposited data

Results flagged for a closer look

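The change of Itga5 differed between Irf2bp2 KD and induction of MEL cells by 1.384 on the log2 scale (adjusted p = 0.0108, edgeR interaction). It was at -0.10 in Irf2bp2 KD and at -1.45 on induction. The same test gave a difference of 0.978 for Itgb2 (adjusted p = 0.0104), which was at 0.06 in Irf2bp2 KD and at -0.89 on induction. Both were singled out because the effect differs between the 2 comparisons, which come from tables of different depth and, by the study's legend, different treatment times. The fit takes 1 spread per gene from both tables, which may understate the spread of the MEL libraries. Itga5 and Itgb2 kept their direction in all 8 fits that left out a library. The adjusted p of Itga5 rose to between 0.058 and 0.0647 without either Irf2bp2 control or without KD replicate 1, and that of Itgb2 to between 0.0621 and 0.0739 without any 1 of the 4 libraries of that table.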

How the results depend on the processing

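Of the values of single genes under an alternative, 558 kept their direction and their side of the limits or, where no test is given, moved by less than their error, while 18 lost and 25 gained a call, 6 in tested comparisons turned in sign and 9 in Cbfa2t3 KD, whose members carry no test, moved by more than their error. The labels number the replicates alike in each group. Replicate 1 minus replicate 2 correlated across genes with r between 0.108 and 0.247 in the Cbfa2t3 table, 0.0246 in Irf2bp2, 0.00142 in Gfi1b and 0.196 in the MEL table. Each group has only 2 numbers and no source says what a number shares, so no block was used, although all 3 correlations in the Cbfa2t3 table were above 0.1. With a replicate block the member calls stayed at 2, 1, 3, 0 and 6 for Cbfa2t3 KD, the hairpins, Irf2bp2 KD, Gfi1b KD and induction, beside 632, 581, 2834, 0 and 3916 genes (720, 465, 2778, 0 and 3187 without it), and for Irf2bp2 minus Gfi1b KD the block called 0 genes instead of 105.

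With no fold limit, 4 members passed in Cbfa2t3 KD (1423 genes), 2 between hairpins (1720 genes) and 5 in Irf2bp2 KD (5810 genes). With sh3 alone 5 members and 1145 genes passed. Without a filter on low counts, 2 members and 411 genes passed in Gfi1b KD, 31 genes in Gfi1b KD minus induction, and 1 member and 164 genes in Irf2bp2 minus Gfi1b KD. DESeq2 called 49 genes in Gfi1b KD. Of the sites at or above the median fold of their class, ETO2 sites lay at 2 of 10 members and 9.46% of genes, and IRF2BP2-only sites at 5 of 10 and 16.2%. The causes were not tested.

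Leaving out each library in turn gave 279 to 797 genes and 2 to 3 members in Cbfa2t3 KD, the lowest count without control replicate 1 and 360 without control replicate 2. It gave 361 to 582 genes and 0 to 1 members between hairpins, 1522 to 3369 genes on induction (1522 and 1626 without non-induced replicates 2 and 1, 1772 without induced replicate 2), and 0 to 3148 genes and 0 to 5 members in Gfi1b KD (3148 without KD replicate 2, 396 without the library labelled replicate 1). It gave 466 to 4082 genes and 0 to 3 members for Irf2bp2 KD minus induction, 0 to 1109 genes and 0 to 4 members for Gfi1b KD minus induction, and 0 to 4453 genes and 0 to 3 members for Irf2bp2 minus Gfi1b KD.

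Turned in sign when a library was left out were Itgb1 (-0.07 to 0.04) and Cd9 (-0.07 to 0.07) in Cbfa2t3 KD, Cd9 in Kdm1a KD (-0.05 to 0.09), Cd53 between hairpins (-1.27 to 0.17), Itga5 in Gfi1b KD (-0.29 to 0.52), and on induction Itga4 (-0.59 to 0.51), Itgb1 (-0.60 to 0.19) and Cd81 (-0.00943 to 0.40), none of them called with all libraries. At 2 libraries a group and 1 to 13 counts for Cd53 in the Cbfa2t3 and Irf2bp2 KD libraries, depth limits its fold.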
